A study of Mus musculus with 8 samples.

Results

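Plexins are the cell surface receptors of semaphorins, and their RNA was compared here between common myeloid progenitors (CMPs) of young and old mice. The 10 genes described are the plexins Plxna1, Plxna2, Plxna3, Plxna4, Plxnb1, Plxnb2, Plxnb3, Plxnc1 and Plxnd1 and the co-receptor Nrp1, out of 34797 gene names on the array. All probes that carry 1 of these names were taken, which gave 14 of 55681 probes. The family was chosen from measured values, since the age difference of Plxna2 in these same arrays led to it, so the values of Plxna2 are a description without a test.

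CMPs are bone marrow progenitors that give rise to the myeloid lineages. They were sorted from untreated wild-type C57BL/6J mice, and the RNA of each sample was hybridized with 1 dye to 1 Agilent array. The labels give an age of 2 to 3 months for the 4 young samples (replicates 3, 4, 5 and 6) and of 22 to 24 months for the 4 old samples (replicates 2, 3, 4 and 5). The labels do not say which samples came from separate mice, so p-values measure the spread between these 8 samples.

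Plexins span the membrane and carry a cytoplasmic domain that switches off small GTPases of the Rap family once a semaphorin binds. A-type plexins form receptors for secreted class 3 semaphorins together with neuropilins such as Nrp1. The B-type plexins Plxnb1 and Plxnb2 bind class 4 semaphorins, Plxnc1 binds Sema7a, and Plxnd1 binds Sema3e. The family is best known for guiding axons and blood vessels, and several members act in immune cells.

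The reading of Plxna2 and Plxna4 depends on which probe is read, so 30 of the 60 bases of each of their probes are shown, with the coordinates the files give in the mouse build mm9. Whether these positions are exonic or untranslated was not determined here. Capitals mark the second copy of a repeated unit, and the other sequences are in lower case throughout.
Plxna2 A_51_P229602, chr1:196642958-196643017, plus strand: catgtacctattgtaaatatgaaactccta
Plxna2 A_66_P138999, chr13:82317719-82317778, plus strand: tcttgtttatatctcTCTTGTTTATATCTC
Plxna4 A_52_P661, chr6:32094602-32094661, minus strand: ctcaccttgaataccaaccttttgaaagaa
Plxna4 A_52_P650037, chr6:32100484-32100543, minus strand: gaaactggcttacaaactagaacaagtcat

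The 2 probes named Plxna2 do not lie on the same chromosome. RefSeq places Plxna2 on chromosome 1, as does the coordinate of A_51_P229602, whereas A_66_P138999 is filed on chromosome 13 under an Ensembl transcript. Among 27945 probes whose chromosome could be compared with RefSeq, 163 (0.583%) lay on another chromosome than their gene. The chromosome 13 probe holds a unit of 15 bases in tandem, and a repeat of at least that length occurs in 456 probes of the array (0.819%). Its values are therefore given on their own and are not taken as a second measurement of Plxna2.

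Signals are log2 intensities relative to the 75th percentile of each array, so that 0 is the level of the probe at that percentile, and levels of different probes are not compared. A probe is called well above background where the scanner software marks it so. It was tested if this held on at least 4 of the 8 arrays, and called if limma gave an adjusted p under 0.05 over all 33472 tested probes and a fold change of at least 1.5. Of the 14 probes, 11 passed this mark on all 8 arrays and 2 on none, and 12 probes of 9 genes were tested. Only Plxnb1 had no tested probe.

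**Figure D1:**
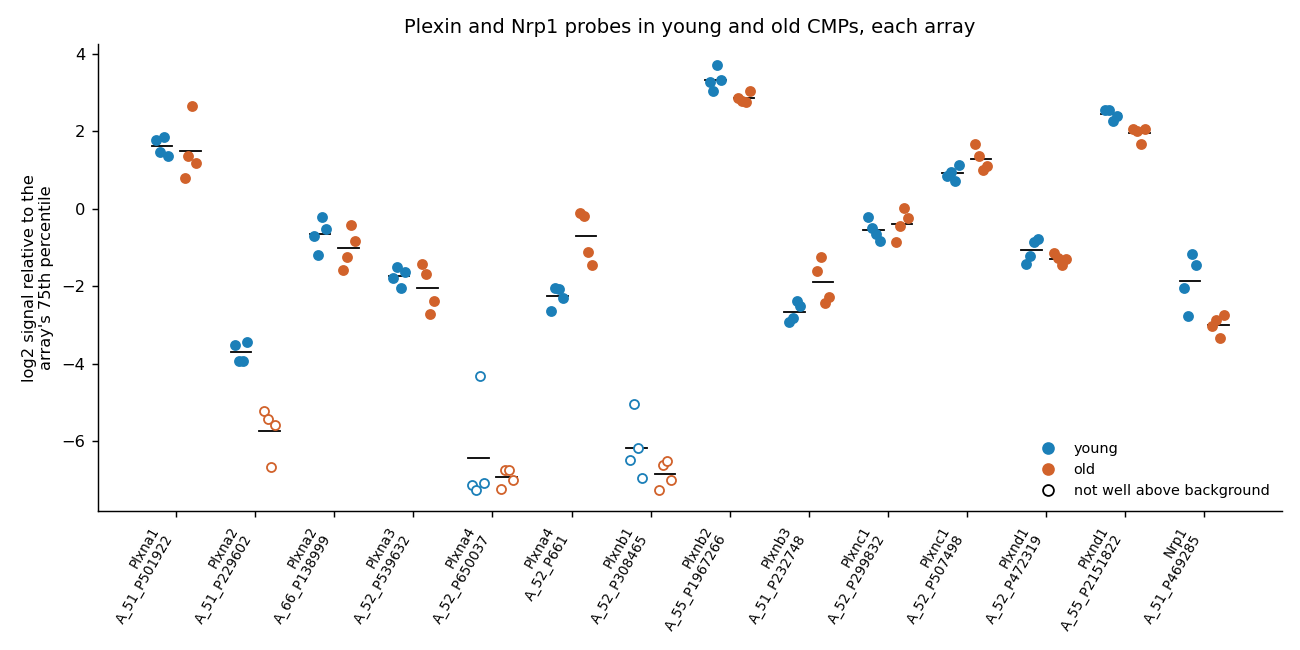
Signal of each plexin and Nrp1 probe on each array, as log2 relative to the 75th percentile of the array, with young samples in blue, old samples in orange and lines at the mean of 4 arrays. Open circles are not well above background, which holds for Plxna2 A_51_P229602 on all 4 old arrays and for Plxna4 A_52_P650037 and Plxnb1 on every array.

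Plxna2, an A-type plexin, was dimmer in old samples at 1 of its probes. At the chromosome 1 probe the young signals were -3.51, -3.94, -3.92 and -3.44, in the order of the replicate numbers, which holds for all values that follow. The old signals were -5.23, -5.43, -6.67 and -5.59. Every old array lay below every young array, and the probe was well above background on the 4 young and on none of the 4 old arrays. The means were -3.70 ± 0.26 (SD, n = 4) and -5.73 ± 0.65 (SD, n = 4), a difference of -2.03 on the log2 scale. Because the old arrays give only a bound, the fold between the means has a lower bound of 2.39 under this background correction. Sampling error is not part of this bound. It holds only if the dimmest signal marked well above background on an array is taken as its limit of detection. Old replicate 4 was the lowest array, and without it the difference was -1.72.

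The raw signals behind this difference are small. The processed intensities were 36.6, 36.9, 23.3 and 47.3 units in young samples and 13.8, 8.20, 2.83 and 8.82 units in old samples, against 75th percentiles of 290 to 565 units on the 8 arrays. With normexp background correction, which adds an offset of 50 units, the difference was -0.24 and the bound was 1.17-fold. The difference was -2.23 between the arrays of the first slide and -1.83 between those of the second, with 2 arrays of each age on each.

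At the chromosome 13 probe named Plxna2, the signals were -0.71, -1.18, -0.21 and -0.51 in young and -1.59, -1.24, -0.42 and -0.82 in old samples. The ages overlapped and the difference was -0.36. The 2 probes of this gene name thus differed in whether the ages overlapped.

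**Figure D2:**
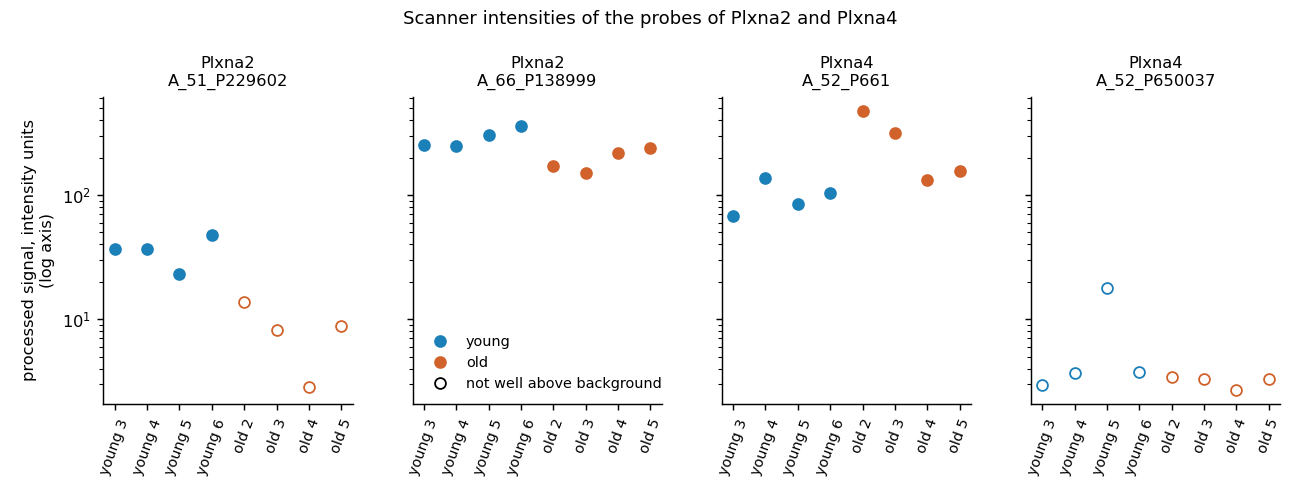
Processed scanner intensity on a log axis for both probes of Plxna2 and both probes of Plxna4, 1 point per array, with open circles where the probe is not well above background. At Plxna2 A_51_P229602 the old arrays lie between 2.83 and 13.8 units and the young arrays between 23.3 and 47.3 units, and at A_66_P138999 all 8 arrays lie between 150.3 and 359.7 units.

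Plxna4, an A-type plexin known for axon guidance, was higher in old samples at 1 probe without passing the test. At A_52_P661 the signals were -2.63, -2.05, -2.07 and -2.30 in young and -0.12, -0.17, -1.13 and -1.44 in old samples. The lowest old signal was above the highest young one, and old replicates 2 and 3 were the highest. The difference was 1.55 with a standard error of 0.32, or 2.92-fold, and the adjusted p of limma was 0.130. Before scaling the ages overlapped, with 136 units in young replicate 4 and 133 units in old replicate 4. The probe was called with array weights (adjusted p of limma = 0.0256). The other Plxna4 probe did not exceed background clearly on any of the arrays and gives no age comparison.

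Plxna1 and Plxna3, the other A-type plexins, had overlapping ages. Plxna1 (chr6:89266290-89266322) gave 1.78, 1.46, 1.85 and 1.36 in young and 0.79, 1.35, 2.65 and 1.19 in old samples. Old samples thus held both the highest and the lowest array, and the difference of -0.12 (95% interval -0.92 to 0.69, adjusted p of limma = 0.998) turned positive without old replicate 2 (0.12) and under other settings. The coordinate of this probe spans 33 bases instead of 60. Of the probes with a coordinate, 4.17% span a length other than 60, either shorter or longer. Plxna3 (chrX:71589923-71589982) gave -0.31 (95% interval -0.97 to 0.35, adjusted p of limma = 0.998).

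Among the B-type plexins, Plxnb2, a receptor of class 4 semaphorins, was well above background on all 8 arrays. Its probe (chr15:88985981-88986040) gave 3.28, 3.04, 3.71 and 3.33 in young and 2.87, 2.79, 2.76 and 3.05 in old samples. The ages overlapped only in that old replicate 5 reached young replicate 4. The difference was -0.47 with a standard error of 0.19 (adjusted p of limma = 0.686). Plxnb3 (chrX:71017572-71017631) gave -2.91, -2.83, -2.38 and -2.52 in young and -1.61, -1.26, -2.42 and -2.29 in old samples. Old replicates 2 and 3 were the highest, as for Plxna4. Its difference was 0.77 with a standard error of 0.28 (adjusted p of limma = 0.590), and 0.49 after normexp correction. Plxnb1 (chr9:109021856-109021915), a receptor of Sema4d, was well above background on none of the arrays.

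Plxnc1, the receptor of Sema7a, was well above background on all arrays at both of its probes. The differences were 0.37 (95% interval -0.08 to 0.82, adjusted p of limma = 0.930) at chr10:94253879-94253938 and 0.16 (95% interval -0.36 to 0.68, adjusted p of limma = 0.998) at chr10:94257387-94257446. The ages overlapped at both.

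Plxnd1, the receptor of Sema3e and known from blood vessels, had 2 probes that differed in overlap. At chr6:115904829-115904888 the signals were 2.55, 2.55, 2.26 and 2.40 in young and 2.05, 2.00, 1.66 and 2.06 in old samples. Every old array lay below every young array, with a difference of -0.50 and a standard error of 0.17 (adjusted p of limma = 0.539). At chr6:115905315-115905374 the ages overlapped and the difference was -0.21 (95% interval -0.65 to 0.22, adjusted p of limma = 0.998).

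Nrp1, the neuropilin that holds class 3 semaphorins for A-type plexins, gave -2.05, -2.77, -1.16 and -1.44 in young and -3.02, -2.88, -3.33 and -2.75 in old samples at chr8:131026650-131026709. Only young replicate 4 reached into the range of the old samples. The difference was -1.14 with a standard error of 0.33, or 2.21-fold lower in old samples (adjusted p of limma = 0.351), and -0.57 after normexp correction.

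**Figure D3:**
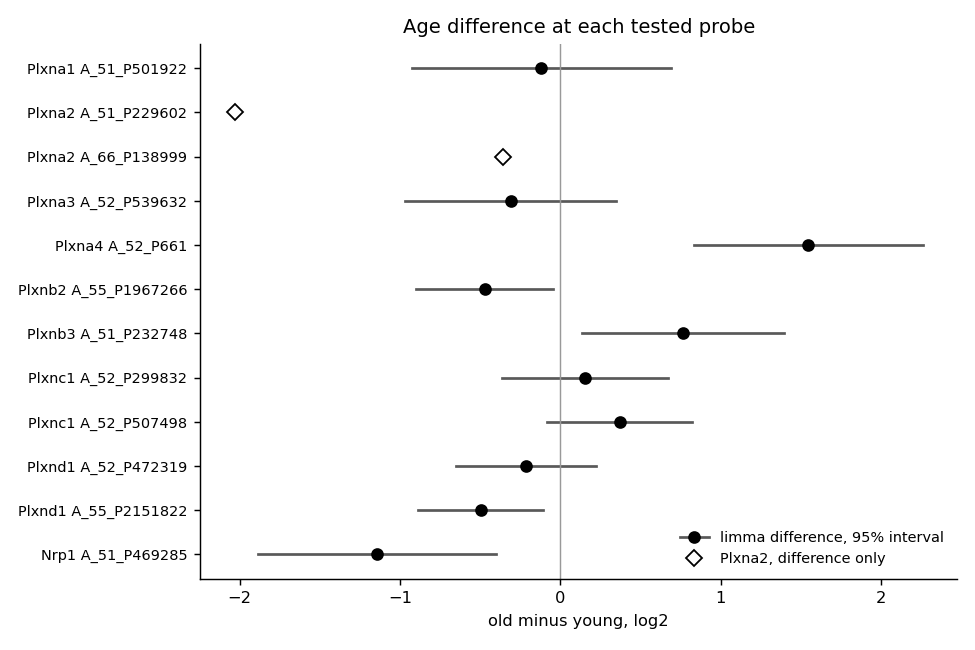
Old minus young difference on the log2 scale at each tested probe, with the 95% interval of limma as a line, and Plxna2 as open diamonds without an interval. The intervals of Plxna4 A_52_P661, Plxnb3, Plxnb2, Plxnd1 A_55_P2151822 and Nrp1 exclude 0, and none of these passed the adjusted test.

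Leaving out both probes named Plxna2, the family had 10 tested probes, 6 with a lower and 4 with a higher mean in old samples. None of the 10 was called by limma, where 0.0329% of all tested probes were called lower and 0.158% higher in old samples, and 5 of them had an unadjusted p under 0.05, against 6.34% of all tested probes. The ages did not overlap at 1 probe that was lower in old samples (Plxnd1) and at 1 that was higher (Plxna4), against 1.57% and 2.87% of all tested probes. The chromosome 1 probe of Plxna2 is not counted, since its age difference chose the family. It also entered the fit through the young arrays only.

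**Figure D4:**
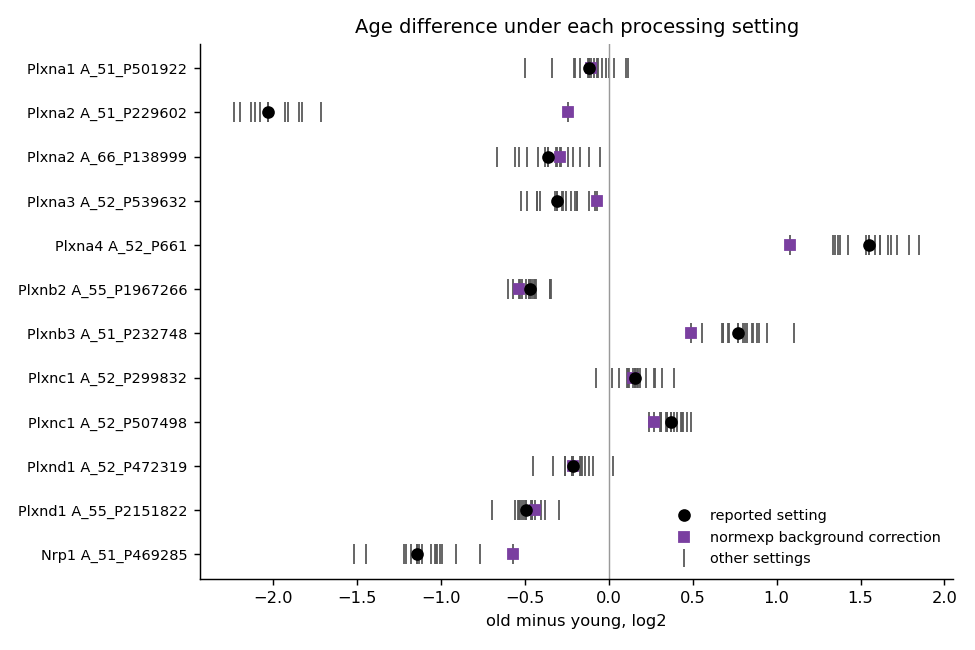
Old minus young difference on the log2 scale at each tested probe under the reported setting (black), normexp background correction (purple) and the other settings (ticks). Plxna2 A_51_P229602 ranges from -2.23 to -0.24 over the 18 other settings that gave it a value. Plxna4 A_52_P661 ranges from 1.08 to 1.85 over 23. At both probes the ages do not overlap in the reported setting, so leaving out arrays could not change the sign.

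The ligands and partners of plexins gave no called gene in either direction. Calls were rare over all tested probes, at 0.158% higher and 0.0329% lower in old samples. The lack of calls therefore does not set these genes apart. Of 20 semaphorins, 12 were tested at their brightest probe, 4 with a higher and 8 with a lower mean in old samples, and 5 were well above background on none of the arrays. Their median difference was -0.11, against -0.02 over all tested probes. Sema7a, the ligand of Plxnc1, gave 0.79, and Sema4a gave -0.77. They are named as the ends of the list, chosen after their values were seen (lowest adjusted p of limma = 0.438). Of 12 co-receptors and other semaphorin receptors, 9 were tested, 3 with a higher and 6 with a lower mean (median -0.11). Itga1, the low end of this list, gave -1.06 at its brightest probe (adjusted p of limma = 0.340). Its other probe gave -1.26 (adjusted p of limma = 0.326), and the ages overlapped at both. Cd72, a receptor of Sema4d on lymphoid cells, gave -0.40, -0.89, -1.15 and -0.89 in young and -0.30, -0.23, 0.01 and -0.05 in old samples. These ages did not overlap, and the difference was 0.69 (adjusted p of limma = 0.351). Of all tested probes, 2.87% were higher in old samples without overlap. At the other Cd72 probe (A_55_P2180415) the ages overlapped and the difference was 0.68 (adjusted p of limma = 0.433). Kdr, a receptor of vascular endothelial growth factor, gave -0.05 with overlapping ages at its brightest probe. At a dimmer probe (A_51_P316553) the old samples were higher without overlap, with a difference of 0.86 (adjusted p of limma = 0.433).

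Of 36 signal transducers, 34 were tested, 16 with a higher and 18 with a lower mean (median -0.02). The ages did not overlap at 2 of them, both higher in old samples, where this holds for 2.87% of all tested probes. Arhgef12, a guanine nucleotide exchange factor that binds B-type plexins, gave -0.20, -0.69, -1.24 and -0.63 in young and 0.15, 0.03, 0.33 and 0.73 in old samples, a difference of 0.998 (adjusted p of limma = 0.238). Rap1b, a GTPase of the family that plexins switch off, gave 5.26, 5.06, 4.79 and 5.29 in young and 5.68, 5.40, 5.76 and 5.83 in old samples, a difference of 0.57 (adjusted p of limma = 0.484). At an unadjusted p under 0.05, limma gave 2 of 12 tested semaphorins, 3 of 9 co-receptors and other receptors and 2 of 34 transducers. Of all tested probes, 6.34% had such a p.

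**Figure D5:**
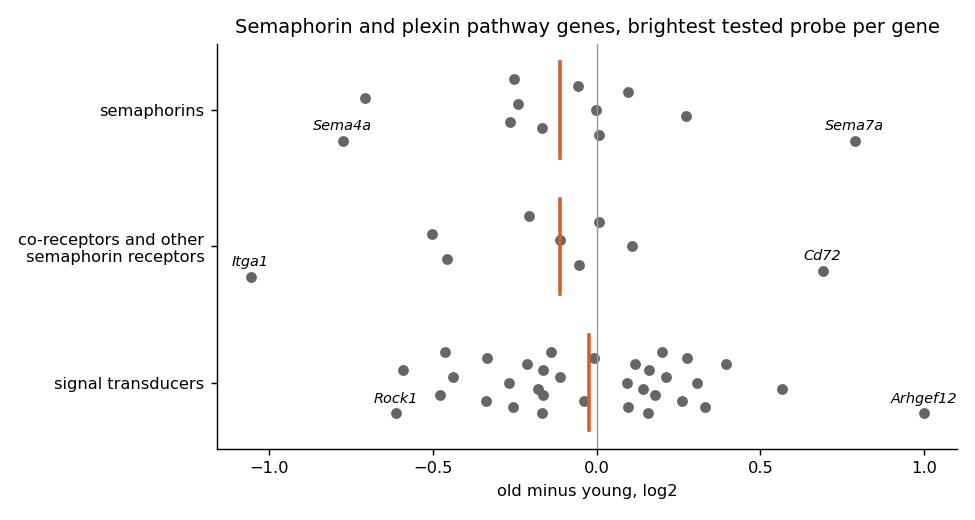
Old minus young difference on the log2 scale for 12 semaphorins, 9 co-receptors and other semaphorin receptors and 34 signal transducers, 1 point per gene at its brightest tested probe, with the median of each list in orange. The medians are -0.11, -0.11 and -0.02, and none of the genes was called.

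Lists of cell type markers were read in the same samples, and among the markers named here only Gp9 and Hoxb5 were called. Over all tested probes, 0.158% were called higher and 0.0329% lower in old samples. All 13 megakaryocyte markers had a higher mean in old samples, with a list mean of 1.22 to 1.84 in young and 2.64 to 3.03 in old samples, and Gp9 gave 1.21 (adjusted p of limma = 0.0327). Of 10 granulocyte and monocyte markers 9 had a lower mean, with a list mean of 4.61 to 5.24 in young and 4.04 to 4.69 in old samples. Of 7 endothelial markers 6 had a higher mean, with a list mean of -0.17 to 0.35 in young and 0.42 to 0.96 in old samples. Of 6 stem cell markers 3 had a higher mean, with a list mean of -2.83 to -2.24 in young and -2.18 to -1.83 in old samples. Hoxb5 gave 1.85 (adjusted p of limma = 0.00707). It was a dim probe, well above background on 3 young and 4 old arrays. Summed as linear signals, the stem cell list overlapped, with 1.64 to 2.66 in young and 2.24 to 2.65 in old samples. By this sum the endothelial list also overlapped, whereas the megakaryocyte list and the granulocyte and monocyte list did not. Each marker of these lists on the array was well above background on at least 1 array, whereas the lymphoid markers Pax5, Rag1 and Ebf1 were not well above background on any. Kit and Cd34, which define the sorted cells, were well above background on all 8 arrays, as was Ly6a, which the sort is meant to exclude. Of 6 tested markers of the sort itself, 5 had a lower mean in old samples and none was called. The lineage markers Itgam and Cd4, which the sort is also meant to exclude, were well above background on all 8 arrays. Cd8a was so on 2 young and 2 old arrays. The part of these values in the plexin values was not tested, and fewer cells of a type cannot be told apart from less RNA per cell in such bulk samples.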

How the data were processed

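Each sample was hybridized to its own array, and the submitters' processing notes name Feature Extraction 10.7.3.1. The deposited scanner output gives, on a linear scale, the intensity of 62976 spots after background correction by that software. A second table deposited by the authors holds log2 values that they had scaled to the 75th percentile and baseline-centred. It correlated with the intensities at 0.999 over 39156 lines of a single probe, had column medians of -0.11 to 0.15, and served as an alternative only. In it the paired probes of Plxna2, Plxna4, Plxnc1 and Plxnd1 are merged by gene name. The merged line of Plxna2, which includes the chromosome 13 probe, gave an old minus young difference of -0.43.

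From the intensities, log2 minus the 75th percentile of the array over non-control spots was computed. Flagged outlier spots (141 to 230 per array) were left out of the values and of the background marks, and spots of a probe were averaged. No spot was saturated. Tests used limma 3.58.1 in R 4.3.3 with the Benjamini-Hochberg adjustment, and the fit was first tested on simulated data. Precision is limited by how many arrays there are. For the bound on a fold change, each array of the dim age took either its own signal or the dimmest signal still marked well above background on that array, whichever was higher.

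The genes named were the 10 members with every probe, pathway genes that were called or whose ages did not overlap at the brightest tested probe, and the 3 genes most alike to Plxna2 and to Plxnb2. Genes labelled at the ends of the pathway lists, Kdr, Gp9 and Hoxb5 were chosen after their values were seen. The members and lists were chosen with earlier results of these data known. The paper counts 3 mice per age without naming arrays, so all 8 arrays were used. Replicates 3, 4 and 5 occur at both ages, but the correlations of their deviations (-0.09, -0.14 and 0.15) do not pair them. Alternatives were other background corrections, scalings, filters, tests, weights and blocks, the second table and leaving out each array.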

Additional observations from a re-analysis of the deposited data

Results flagged for a closer look

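Of 28 groups of 4 arrays at the 14 probes, 2 held an array that stood apart by Dixon's ratio, where chance gives about 1 in 20. At Plxna4 A_52_P650037, young replicate 5 lay at -4.31 on the log2 scale above the other young arrays (ratio 0.939), although the probe was not well above background there. At Plxnd1 A_55_P2151822, old replicate 4 lay at 1.66 below the other old arrays (ratio 0.847).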

How the results depend on the processing

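Calls are given for the members other than Plxna2, whose difference chose the family and is a description only. None of them was called in the reported setting. The same held with normexp correction, quantile normalization, a shift to the array median, no filter on dim probes and a filter on all 8 arrays. It also held with the adjusted methods' t-test, an intensity trend with robust variances, the slide as a block, the replicate block and the series table. Array weights called Plxna4. The unadjusted methods' t-test called Nrp1 and Plxna4, and also gave 6 pathway genes where the other settings gave 0. Leaving out 1 array called none of these members. Without any 1 young array, the chromosome 1 probe of Plxna2 was well above background on 3 arrays and was not tested. It was also not tested under the filter on all 8 arrays. Over the array, 53 probes were called higher and 11 lower, against 82 and 22 with normexp correction, 137 and 52 with array weights, 12 and 1 with the replicate block, 645 and 406 with the unadjusted methods' t-test and 0 and 0 with the adjusted one. The shift to the median moved the median of all probes from -0.02 to 0.10. The Plxna1 difference turned to 9.75e-07 with that shift, to 0.032 with the replicate block, to 0.10 on the first slide, and ranged from -0.50 (without old replicate 4) to 0.12 (without old replicate 2) when 1 array was left out. On the first slide, Plxnc1 A_52_P299832 turned to -0.075 and Plxnd1 A_52_P472319 to 0.025. The cause of these changes was not tested.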

Other observations

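Over the 8 arrays, the tested probes most alike to the chromosome 1 probe of Plxna2 were those of Ly86 (Pearson's r = 0.986), Ly9 (r = 0.977) and Snx20 (r = 0.973), given as a description since the points share the age groups and the 4 old values of Plxna2 are not well above background. Ly86 encodes a partner of the Toll-like receptor homologue CD180, and Ly9 a SLAM family receptor. Their differences were -1.07, -0.66 and -0.64 on the log2 scale. For Plxnb2 the most alike were a probe named only by a position on chromosome 2 (r = 0.983), BQ042754 (r = 0.972) and Cldn15 (r = 0.971). Their differences were -0.57, -0.15 and -1.09. The chromosome 2 probe was well above background on 4 young but only 2 old arrays. A probe of Gm6403 (chr1:196444431-196444490) lies on chromosome 1, as does Plxna2, and is described as a cDNA with the product plexin 2. It was well above background on none of the young or old arrays.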
